A study of Mus musculus with 12 samples.

Results

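Atf3, Jun, Gap43, Basp1, Gal, Adcyap1, Ecel1 and Sprr1a are 8 genes known from injured and regenerating neurons. Their transcripts were followed in astrocytes cut by laser from the spinal cord of SOD1 G93A mice, a model of ALS. The 8 genes were picked with earlier results of these arrays known, and the rule then went by gene names alone. Every probe set (a group of short oligonucleotides that reads a transcript) annotated with one of the 8 symbols and no other was taken. This gave 10 of the 45101 probe sets on the array. The genes are 8 of the 18193 that have a probe set of their own there. Jun and Adcyap1 were read by 2 probe sets each and the other genes by 1. The 932 probe sets annotated with several symbols were left out.

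The SOD1 G93A mice were males of the line B6SJL-Tg(SOD1 G93A)1Gur/J, backcrossed to C57Bl/6 J Ola/Hsd, which carry a human SOD1 gene with an ALS mutation. They were taken at 90 days, the symptomatic stage, and at 120 days, the late stage. Male non-transgenic (NTg) littermates of each age were the controls. Each of the 4 groups held 3 mice, each mouse gave 1 array, and no group was treated with a drug. The human transgene is driven by its own promoter in neurons and glia alike, so a difference between genotypes cannot be assigned to mutant SOD1 in astrocytes. At least 1500 cells were captured per mouse and their RNA was amplified over 2 rounds. The sources name different stains for finding the astrocytes, ALDH1L1 antibody or toluidine blue. All 10 astrocyte markers examined were bright enough to test, but so were all 10 general neuronal markers, so neuronal transcripts were also in the captured RNA.

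When an axon is cut, the kinase DLK and the JNK kinases carry the signal back to the cell body, where JUN is phosphorylated and ATF3 is switched on. These transcription factors belong to the bZIP class, bind DNA as pairs, and take part in turning on genes for axon growth and survival. In the spinal cord the programme is best known from motor neurons after nerve injury, and ATF3 is a widely used mark of injured neurons. ATF3 and JUN are also induced by stress in other cell types, glia included.

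Of the 10 probe sets, 8 passed the filter on dim signals and were tested, and they cover 7 of the genes. Atf3 rose in SOD1 G93A mice at both ages, by 4.41-fold at 90 days and 4.11-fold at 120 days. Gap43 rose 2.70-fold at 120 days. No other member passed at either age, and none fell. Sprr1a was the nearest, with signals in SOD1 G93A mice above those in NTg mice at both ages but adjusted p-values of 0.314 at 90 days and 0.0521 at 120 days in the limma fit. The Gal probe set and 1 of the Adcyap1 probe sets were too dim to test.

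The values given per mouse are the deposited signal intensities, in arbitrary units, for mice 1 to 3 of a group. Fold changes are SOD1 G93A over NTg, on log2 of the intensity plus 7 after normalization within each age, and understate the change of dim genes. They come with standard errors (SE) from a limma fit of all 12 arrays and with Benjamini-Hochberg adjusted p-values over the 26132 probe sets that were tested, called under 0.05. Groups are said not to overlap where every normalized value of one lay above every value of the other. The 3 arrays per group limit the precision. A signal is compared between groups for 1 probe set at a time, since the brightness of different probe sets does not rank their transcripts.

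Over all probe sets tested, 0.115% (30 of 26132) were called higher and 0.0230% (6) lower in SOD1 G93A than in NTg mice at 90 days, and 3.60% (940) higher and 3.86% (1008) lower at 120 days. Among the 8 tested probe sets of these genes, 1 was called at 90 days and 2 at 120 days. By a threshold of a 2-fold rise and an unadjusted p of 0.05, which 0.999% of all probe sets passed at 90 days and 5.18% at 120 days, Atf3 and Sprr1a passed at 90 days and Atf3, Gap43 and Sprr1a at 120 days. The genotype groups did not overlap, with SOD1 G93A higher, for 4 of the 8 probe sets at 90 days (5.74% of all) and 3 of the 8 at 120 days (14.0% of all). The 3 at 120 days were Atf3, Gap43 and Sprr1a, which also separated at 90 days, as 2.22% of all probe sets did at both ages. Of the 7 genes tested, 6 had a positive log2 fold change at each age. Among all probe sets tested, 49.7% were positive at 90 days and 45.5% at 120 days. The median of the 7 genes was 0.57 at 90 days and 0.69 at 120 days, where all tested probe sets had medians of -0.002 and -0.07. Since the genes were picked with results known, these counts and medians describe them and are no test of the group.

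**Figure D1:**
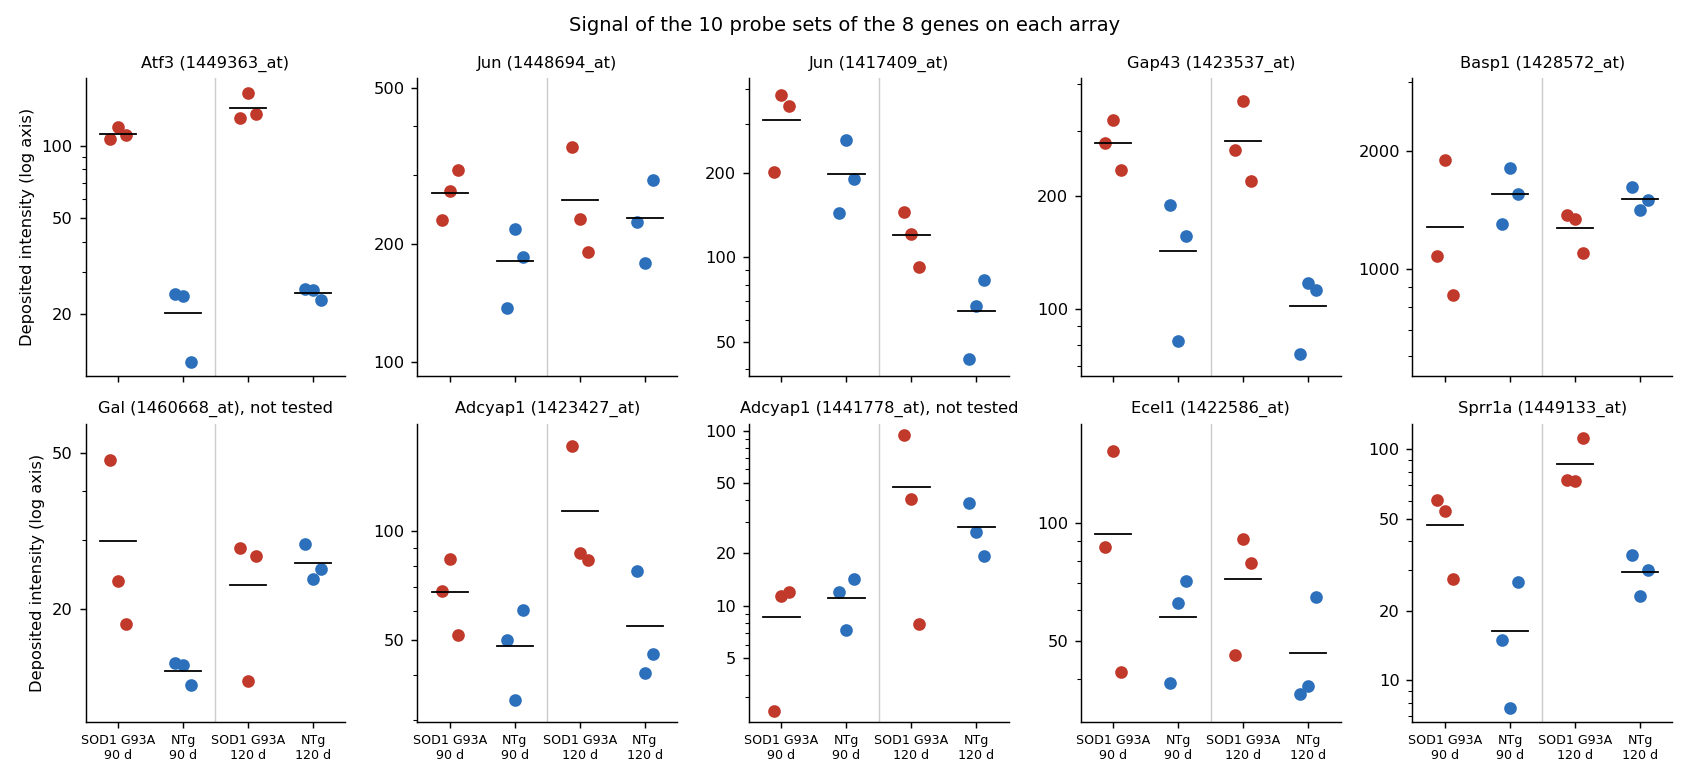
Deposited signal intensity (log axis) of each probe set on each of the 12 arrays, with SOD1 G93A mice in red, NTg mice in blue and the group mean as a bar. The Atf3 panel shows SOD1 G93A arrays at 106.7 to 166.0 and no NTg array above 25.4. In the Jun, Basp1, Gal, Adcyap1 and Ecel1 panels the groups overlap at 1 or both ages.

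Atf3 encodes the stress-induced transcription factor ATF3, which is at very low levels in most resting cells. At 90 days its intensities were 106.7, 120.4 and 110.6 in the SOD1 G93A mice, against 24.3, 23.9 and 12.7 in the NTg mice. The late-stage values were 131.0, 166.0 and 136.4 in the SOD1 G93A mice, against 25.4, 25.1 and 22.8 in the NTg mice. The groups stood far apart at both ages, and the lowest SOD1 G93A array was over 4 times the highest NTg array. The log2 fold change was 2.14 (SE 0.28, limma adjusted p = 0.00579) at 90 days, which had the 11th smallest p of all probe sets tested. At 120 days it was 2.04 (SE 0.28, limma adjusted p = 0.00117), with the 94th smallest p. The difference of the 2 log2 fold changes, 120 minus 90 days, was -0.10 with a 95% confidence interval of -0.94 to 0.73 (limma adjusted p = 0.950). Fitted without the arrays of the other age, Atf3 at 90 days no longer passed, with a log2 fold change of 2.14 and a limma adjusted p of 0.0647.

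Jun encodes c-Jun, the bZIP factor that JNK activates. Its probe set 1448694_at, the brighter of the pair over all 12 arrays though the dimmer at 90 days, had intensities of 230.6, 273.3 and 309.5 in SOD1 G93A mice at 90 days, against 137.8, 219.4 and 185.9 in NTg mice. At 120 days the values were 354.3, 231.5 and 190.9 in SOD1 G93A mice, against 228.6, 178.9 and 291.6 in NTg mice. The groups did not overlap at 90 days, although the closest arrays differed by little, and were mixed at 120 days. The log2 fold change was 0.57 (SE 0.29, limma adjusted p = 0.934) at 90 days and 0.19 (limma adjusted p = 0.705) at 120 days. The second value changed sign, to -0.26 with median centring and to -0.038 without the first SOD1 G93A mouse of 120 days.

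The other Jun probe set, 1417409_at, had log2 fold changes of 0.61 (SE 0.34, limma adjusted p = 0.989) at 90 days and 0.68 (SE 0.34, limma adjusted p = 0.231) at 120 days. At 90 days its intensities were 202.7, 379.1 and 346.2 in SOD1 G93A mice, against 144.1, 262.3 and 190.9 in NTg mice. The values of 120 days were 145.8, 120.9 and 92.8 in SOD1 G93A mice, against 43.3, 66.9 and 83.3 in NTg mice. Those of 120 days did not overlap as deposited but did after normalization. Over the 12 arrays, with group means taken off, the Jun probe sets had a Pearson correlation of 0.667, given as a description. Neither was called, and the 95% confidence intervals at 120 days, -0.42 to 0.81 for 1448694_at and -0.06 to 1.41 for 1417409_at, leave room for a change of 1.5-fold upwards.

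ATF3, JUN and their relatives bind short DNA words, and these are shown where they occur in the 250 bases before the start of a member. RefSeq promoters on mouse GRCm38.p6 were at hand for 7 of the 8 genes, Gap43 being the one without an entry. The words searched, on both strands, were the AP-1 site TGAGTCA, the cAMP response element TGACGTCA, its variant TGACATCA known from the Jun promoter, and TTGCATCA, the composite word of C/EBP and ATF factors. They were chosen after the sequences had been looked at. The 3 promoters below are those with a match, which stands in capitals, and each is written 5′ to 3′ on the strand of its gene, all 3 being the minus strand.
Atf3, chr1:191183334-191183583: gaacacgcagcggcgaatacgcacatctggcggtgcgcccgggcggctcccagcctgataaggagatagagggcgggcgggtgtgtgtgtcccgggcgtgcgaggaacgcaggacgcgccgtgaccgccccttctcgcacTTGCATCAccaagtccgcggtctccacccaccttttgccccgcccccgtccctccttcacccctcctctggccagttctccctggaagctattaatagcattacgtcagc
Jun, chr4:95052223-95052472: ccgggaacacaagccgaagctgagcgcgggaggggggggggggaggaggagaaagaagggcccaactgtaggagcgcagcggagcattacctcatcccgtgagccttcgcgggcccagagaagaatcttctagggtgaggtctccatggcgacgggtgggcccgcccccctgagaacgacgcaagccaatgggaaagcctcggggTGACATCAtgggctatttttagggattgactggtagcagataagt
Sprr1a, chr3:92485882-92486131: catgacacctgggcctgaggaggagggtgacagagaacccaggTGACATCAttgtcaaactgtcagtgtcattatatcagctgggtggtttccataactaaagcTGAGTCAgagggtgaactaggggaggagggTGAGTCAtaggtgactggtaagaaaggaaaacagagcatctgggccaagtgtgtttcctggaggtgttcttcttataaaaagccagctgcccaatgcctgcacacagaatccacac
The Atf3 promoter held TTGCATCA with its first base 110 bases before the start, a word found in 0.791% of 32851 mouse promoters of this length. The Jun promoter held TGACATCA at 45 bases before the start, as 2.93% of promoters did in either orientation. Sprr1a held TGACATCA at 207 bases and TGAGTCA at both 146 and 116 bases before its start. The AP-1 word was in 4.46% of promoters, and 0.167% (55) held it at least 2 times. TGACGTCA, present in 1.55% of promoters, was in none of the 7 members, and Basp1, Gal, Adcyap1 and Ecel1 had none of the words. A match is a run of letters and says nothing about binding in these cells.

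Gap43 encodes GAP-43, a growth-cone phosphoprotein that binds calmodulin and is a long-used marker of axon growth. At 90 days its intensities were 277.4, 319.4 and 235.1 in SOD1 G93A mice, against 190.1, 81.9 and 156.4 in NTg mice. At 120 days they were 265.4, 359.9 and 219.9 in SOD1 G93A mice, against 75.8, 117.3 and 112.1 in NTg mice. The groups did not overlap at either age, and at 90 days the first NTg mouse came nearest to the SOD1 G93A mice. The log2 fold change at 90 days was 0.96 (SE 0.31, unadjusted p = 0.00880, limma adjusted p = 0.562), which did not pass. At 120 days it was 1.43 (SE 0.31, limma adjusted p = 0.0178). The difference between the ages was 0.47 (95% confidence interval -0.48 to 1.43, limma adjusted p = 0.758), so a larger rise at 120 days was not shown. The call at 120 days was lost with median centring (log2 fold change 1.01, limma adjusted p = 0.0671) and without any 1 of the NTg mice of that age (limma adjusted p = 0.0682, 0.0566 and 0.0558 without mice 1, 2 and 3).

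Basp1 encodes the second growth-cone phosphoprotein, BASP1 or CAP-23, which shares with GAP-43 its place under the plasma membrane. It was bright on every array, never below percentile 96.6 of the array's own signals. Its intensities were 1080.6, 1898.2 and 860.0 in SOD1 G93A mice at 90 days, against 1303.8, 1811.4 and 1553.8 in NTg mice. The older mice had 1377.7, 1341.2 and 1098.8 in SOD1 G93A mice, against 1618.4, 1415.3 and 1496.7 in NTg mice. The groups overlapped at 90 days, and at 120 days the SOD1 G93A arrays were the lower ones as deposited but overlapped after normalization. The log2 fold changes were -0.28 (SE 0.31, limma adjusted p = 1.00) at 90 days and -0.17 (SE 0.31, limma adjusted p = 0.762) at 120 days, with an interval of -0.83 to 0.49 at 120 days. With 1 array left out, the value at 90 days ranged from -0.67 to -0.026. Basp1 was the 1 member of the 7 with a negative value at each age. At 120 days the interval of Basp1 lay wholly below that of Gap43 (0.76 to 2.11), though the difference between the genes was not tested.

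Sprr1a encodes a small proline-rich protein of the cornified envelope of skin, which injured neurons also make and which promotes axon outgrowth in culture. At 90 days its intensities were 60.2, 53.9 and 27.4 in SOD1 G93A mice, against 15, 7.6 and 26.6 in NTg mice. At 120 days they were 73.9, 72.7 and 112.1 in SOD1 G93A mice, against 35.0, 23.1 and 30.1 in NTg mice. The groups were clear of each other at 120 days, and at 90 days the third mouse of each group came within 1 unit of the other. The log2 fold change was 1.19 (SE 0.31, unadjusted p = 0.00199, limma adjusted p = 0.314) at 90 days and 1.07 (SE 0.31, unadjusted p = 0.00401, limma adjusted p = 0.0521) at 120 days. The value at 120 days passed with the values as deposited (limma adjusted p = 0.0286), with quantile normalization over all 12 arrays (0.0260), with the higher offset of 34.4 (0.0356) and with array weights (0.0362). It also passed without any 1 of 4 mice of 90 days (SOD1 G93A mice 1 and 3, NTg mice 2 and 3), where the log2 fold change stayed at 1.07. Under the other 14 of 22 alternatives it did not pass. Among these were a replicate block (limma adjusted p = 0.109), median centring (0.0549) and leaving out any 1 mouse of 120 days (0.0562 to 0.180). The difference between the ages was -0.11 (95% confidence interval -1.06 to 0.83, limma adjusted p = 0.952).

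**Figure D2:**
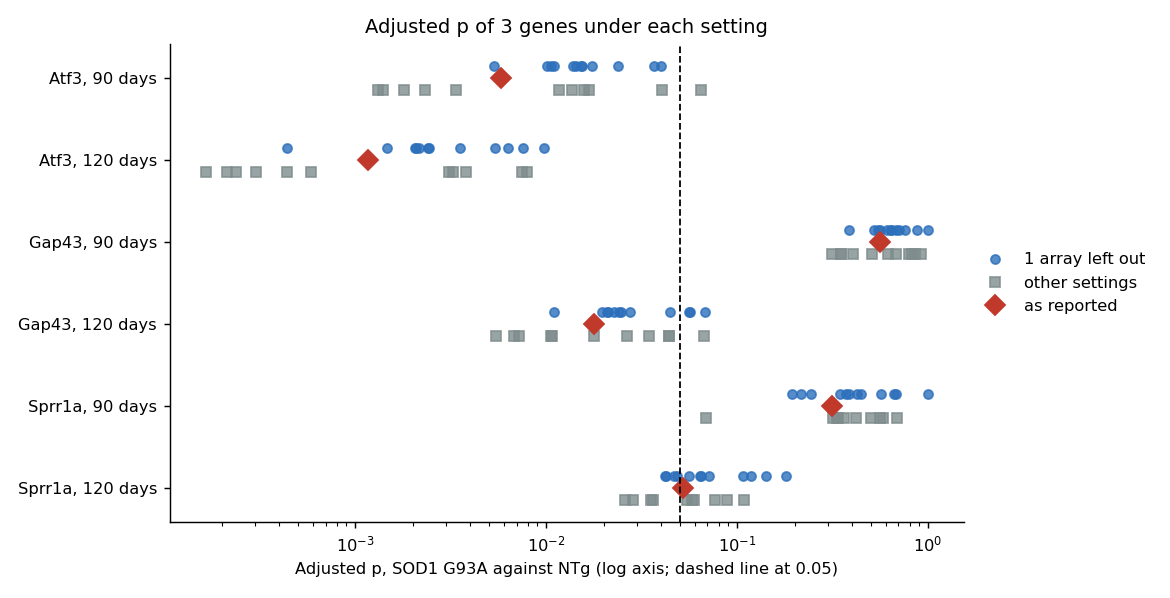
Adjusted p (log axis, dashed line at 0.05) of Atf3, Gap43 and Sprr1a at each age as reported (diamonds), with 1 array left out (circles) and under the other settings tried (squares). Atf3 crosses the line once, at 90 days with an adjusted p of 0.0647, Gap43 at 120 days lies on both sides of it, and so does Sprr1a at 120 days, where it is 0.0521 as reported.

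Gal encodes the precursor of galanin, a neuropeptide that motor and sensory neurons raise sharply after axotomy. Its only probe set, 1460668_at, was above its array's median on too few arrays to be tested. At 90 days its intensities were 48.0, 23.6 and 18.3 in SOD1 G93A mice, against 14.6, 14.4 and 12.8 in NTg mice. Late-stage values were 28.6, 13.1 and 27.4 in SOD1 G93A mice, against 29.4, 23.9 and 25.3 in NTg mice. The SOD1 G93A arrays were all higher at 90 days, most of all the first, and at 120 days they overlapped as deposited. The fitted log2 fold change was 0.72 at 90 days and -0.62 at 120 days, which is a description of dim values. Without the first SOD1 G93A mouse of 90 days the value at that age was 0.39.

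Adcyap1 encodes PACAP, a neuropeptide of the VIP family that is raised in injured motor neurons and favours survival. Its brighter probe set, 1423427_at, had intensities of 68.4, 83.6 and 51.6 in SOD1 G93A mice at 90 days, against 49.9, 34.2 and 60.6 in NTg mice. At 120 days they were 171.8, 86.7 and 83 in SOD1 G93A mice, against 77.6, 40.6 and 45.7 in NTg mice. At 120 days the groups did not overlap as deposited, with the first mouse of each the brightest, but did overlap after normalization. The log2 fold change was 0.39 (SE 0.34, limma adjusted p = 1.00) at 90 days and 0.69 (SE 0.34, limma adjusted p = 0.218) at 120 days. Without the first SOD1 G93A mouse of 120 days, the second value was 0.30. The dim probe set 1441778_at, not tested, had intensities of 2.5, 11.4 and 12 in SOD1 G93A mice at 90 days, against 11.9, 7.3 and 14.2 in NTg mice. At 120 days it had 95, 40.5 and 7.9 in SOD1 G93A mice, against 38.8, 26.4 and 19.3 in NTg mice. These groups overlapped, and the 3 SOD1 G93A mice of 120 days differed among themselves by more than the groups did.

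Ecel1 encodes an endopeptidase-like membrane protein also called DINE, for damage-induced neuronal endopeptidase. At 90 days its intensities were 86.6, 152.1 and 41.6 in SOD1 G93A mice, against 39.0, 62.3 and 70.9 in NTg mice. In the older mice they were 45.9, 90.7 and 78.8 in SOD1 G93A mice, against 36.5, 38.3 and 64.6 in NTg mice. The groups overlapped at both ages. The log2 fold change was 0.47 (SE 0.40, limma adjusted p = 1.00) at 90 days and 0.29 (SE 0.40, limma adjusted p = 0.681) at 120 days, with an interval of -0.57 to 1.14 at 120 days. Single mice moved these values: with 1 array left out they ranged from 0.078 (without SOD1 G93A mouse 2) to 0.91 (without SOD1 G93A mouse 3) at 90 days, and from 0.081 (without SOD1 G93A mouse 2) to 0.49 (without SOD1 G93A mouse 1) at 120 days.

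**Figure D3:**
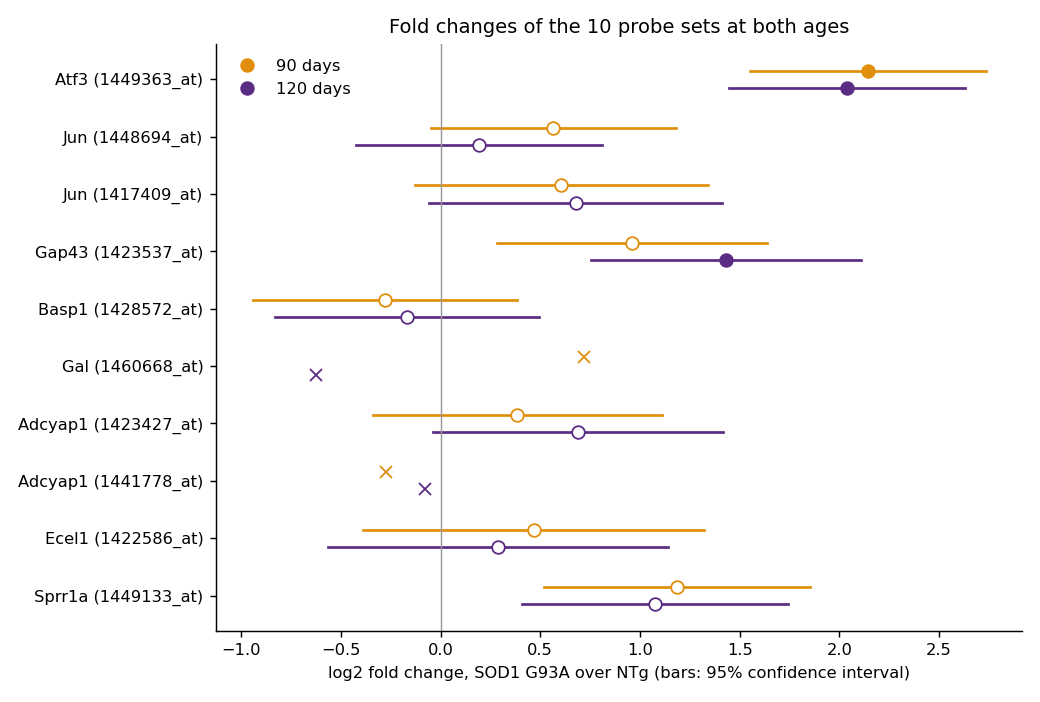
Log2 fold change, SOD1 G93A against NTg, of each probe set at 90 days (orange) and 120 days (purple), with 95% confidence intervals from the limma fit. Filled points had an adjusted p under 0.05 (Atf3 at both ages, Gap43 at 120 days), open points did not, and crosses mark the 2 probe sets that were not tested.

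No member was called for a difference of its log2 fold change between the ages. Nor was any of the 26132 probe sets (0%), although 2414 had an unadjusted p under 0.05 in limma. The differences of the 7 genes, 120 minus 90 days, ran from -0.37 for Jun to 0.47 for Gap43, with a median of -0.10 beside -0.07 for all probe sets. The ages were normalized apart, so their levels are not compared.

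The SOD1 G93A arrays of 120 days stood somewhat apart: their median intensities were 38.8 to 55.2, against 27.9 to 37.1 in NTg mice, and they correlated less well with each other (mean r 0.835 to 0.880, against 0.945 to 0.952). At 90 days the medians were 27.8 to 29.8 in SOD1 G93A mice and 24.9 to 30.4 in NTg mice. Leaving out each array of the late-stage SOD1 G93A mice in turn ended neither the Atf3 nor the Gap43 call at 120 days. Median centring, however, ended the Gap43 call (log2 fold change 1.01, limma adjusted p = 0.0671), though not that of Atf3.

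Markers of other cells moved with genotype as well. The counts below stand beside 0.115% of all probe sets called higher and 0.0230% called lower at 90 days. At 120 days these shares were 3.60% and 3.86%. Of 8 microglial and macrophage markers tested, 1 rose at 90 days (Cd68) and 6 at 120 days, with median log2 fold changes of 1.12 and 1.83. Their summed intensity was 5073.7 to 7632.7 in SOD1 G93A mice and 2021.4 to 3741.2 in NTg mice at 90 days, and 5441.2 to 6253.6 against 1124.1 to 1320.9 at 120 days. General neuronal markers went the other way, with 6 of 10 lower at 120 days and none called at 90 days (medians -1.16 at 120 days and -0.43 at 90 days). Their sum was 19462.8 to 23526.0 in SOD1 G93A mice and 26082.4 to 30120.1 in NTg mice at 90 days, and 9283.7 to 15492.5 against 21641.8 to 27785.6 at 120 days. Of the 9 motor neuron markers tested, 1 was lower at 90 days (Chodl) and 2 at 120 days (Chodl and Mmp9). Of the 10 astrocyte markers, 3 were higher at 120 days (Gfap, Aldh1l1 and Sox9) and none was called at 90 days. No oligodendrocyte, Schwann cell or endothelial marker was called at either age, of 7, 4 and 5 tested. The summed intensity of the oligodendrocyte markers was nonetheless higher at 120 days, 36183.7 to 48976.1 in SOD1 G93A mice against 23358.5 to 29542.4 in NTg mice. At 90 days these sums overlapped (35765.5 to 61317.8 against 30115.4 to 54393.9). Sums of the astrocyte markers overlapped at both ages (17205.1 to 26757.4 against 14973.3 to 18052.4 at 120 days). No marker gene of any of these cells was below the offset on all arrays. Atf3, Gap43 and the values of Sprr1a were thus higher in the same arrays in which neuronal markers were lower and microglial markers higher, and the part of either in them was not tested. In captured RNA, a change in the number of cells of a type and a change in RNA per cell cannot be told apart.

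The genes whose pattern over the 12 arrays was most like a member were found by Pearson correlation after the mean of each age was taken off. The arrays share their genotype groups, so for the called members Atf3 and Gap43 a high value mainly reflects the same difference between genotypes. Each gene was picked for its high value among all tested probe sets of a single symbol, and no p is given. Nearest to Atf3 were Cd68 (r = 0.982), a lysosomal membrane protein of macrophages and microglia, Timp1 (0.981), a secreted inhibitor of metalloproteinases, and Cst7 (0.972), a cysteine protease inhibitor of immune cells. Nearest to Gap43 were Gfap (0.970), the intermediate filament of reactive astrocytes, Tagln2 (0.959) and the filamin Flnc (0.943), both actin-binding. Nearest to Sprr1a were Slc35e4 (0.963), the cell-cycle kinase Cdk6 (0.947) and Clasrp (0.929). Sprr1a was itself not called. The remaining tested members, also not called, had weaker likest genes: Hps1 for Basp1 (0.931), Mafg for Ecel1 (0.907), Hdgf for Adcyap1 (0.897) and Pbx2 for Jun (0.890).

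Among the members themselves, Gap43 and Sprr1a had r = 0.843, Atf3 and Gap43 0.841, and Atf3 and Sprr1a 0.792 over the 12 arrays with age means taken off. With the mean of each group taken off, these were 0.384, -0.05 and -0.59. The highest of these within-group values between different members was 0.730, for Basp1 and Ecel1. With 3 mice per group they are descriptions.

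Genes around the members were taken from lists of known function, chosen, like the members, with earlier results of these arrays known. At 90 days none of their tested genes was called. The smallest adjusted p-values belonged to Cebpd (log2 fold change 1.53, limma adjusted p = 0.198) and Nfil3 (1.20, limma adjusted p = 0.481). At 120 days 16 different genes were called, in the lists that follow.

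Upstream of JUN stand the DLK and JNK kinases, and their list also held the Mapk8ip genes of JNK scaffold proteins. Of 8 genes tested in the list, none was higher and 2 were lower at 120 days, where 3.86% of all probe sets were lower. Map3k12, which encodes DLK itself, had a log2 fold change of -0.95 (SE 0.25, limma adjusted p = 0.0369). Mapk8, which encodes JNK1, had -1.24 (SE 0.35, limma adjusted p = 0.0491). Map3k12 had intensities of 201.8, 231.0 and 162.9 in SOD1 G93A mice at 120 days, against 364.4, 503.7 and 393.1 in NTg mice, with no overlap. The median of the list was -0.17 at 90 days and -0.80 at 120 days. General neuronal markers, with a median of -1.16 at 120 days, were lower in the same arrays, and their part in this was not tested. Neither call held throughout: Map3k12 lost it under 9 of 23 alternatives and Mapk8 under 15 of 23, both of them with each age fitted alone (adjusted p = 0.0785 for Map3k12 and 0.131 for Mapk8) and without any 1 NTg mouse of 120 days. Without the third SOD1 G93A mouse of 120 days Mapk8 had -0.79. These are transcript levels, whereas the kinases are controlled mainly by phosphorylation.

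Calls among the bZIP partners and relatives of ATF3 and JUN were all upwards. Of 15 tested, 4 were higher at 120 days and none lower, where 3.60% of all probe sets were higher, with a list median of 0.66 (0.20 at 90 days). Microglial markers, with a median of 1.83 at 120 days, were higher in the same arrays, and their part in this was not tested. Cebpd, for the inflammation-induced factor C/EBP delta, rose by 3.08 on the log2 scale (SE 0.36, limma adjusted p = 0.000446). Its intensities at 120 days were 1002.6, 1202.2 and 335.8 in SOD1 G93A mice, against 71.1, 79.6 and 94.3 in NTg mice, so that the third SOD1 G93A mouse was well below the other two but still above every NTg mouse. Ddit3, for the stress factor CHOP, rose by 1.92 (SE 0.30, limma adjusted p = 0.00293), with 302.8, 355.1 and 373.1 in SOD1 G93A mice against 81.4, 68.0 and 116.5 in NTg mice. Cebpb rose by 1.89 (limma adjusted p = 0.00309). Atf5 rose by 1.03 (limma adjusted p = 0.0425), but lost its call under 12 of 23 alternatives, among them median centring (0.74, adjusted p = 0.0847) and leaving out any 1 NTg mouse of 120 days. Fos, the classic partner of JUN in AP-1, had a log2 fold change of 1.26 and missed the threshold (limma adjusted p = 0.0561). Jund had 0.99 (limma adjusted p = 0.0991), and Junb was too dim to test.

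Of 32 other regeneration-associated genes tested, 7 were higher and 1 lower at 120 days, with a list median of 0.48 (0.17 at 90 days). Over all probe sets tested, 3.60% were higher and 3.86% lower at 120 days. Gadd45a, a DNA-damage and stress-response gene, rose by 2.39 (SE 0.33, limma adjusted p = 0.00135), with intensities of 190.3, 304.0 and 185.7 in SOD1 G93A mice at 120 days against 32.6, 45.4 and 23.2 in NTg mice. Hspb1, for the small heat-shock protein HSP27 that injured neurons and reactive astrocytes both make, rose by 2.34 (SE 0.35, limma adjusted p = 0.00226), with 1388.8, 1550.0 and 1010.7 against 181.5, 218.5 and 489.0 in NTg mice. Marcksl1, a relative of the MARCKS protein, rose by 1.79 (limma adjusted p = 0.00644), the tubulin gene Tubb2b by 1.42 (0.0121) and Marcks, whose protein links the membrane to actin, by 1.49 (0.0227). The other 2 that rose were the stathmin Stmn4 (1.11, limma adjusted p = 0.0425) and the transcription factor Sox11 (1.30, 0.0447). These calls were fragile: Stmn4 lost its call under 13 of 23 alternatives (0.67, adjusted p = 0.168 with median centring) and Sox11 under 16 of 23 (0.93, adjusted p = 0.0652 with median centring). Marcks lost its call under 6 and Tubb2b under 2. Lifr, the receptor for leukemia inhibitory factor, fell by 1.49 (SE 0.33, limma adjusted p = 0.0189) and lost its call under 4 of 23 alternatives. Several of these genes are made by glia as well as neurons, Hspb1, Marcks and Marcksl1 among them.

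Of 7 tested partners of GAP-43 and BASP1, 1 was higher at 120 days (Marcks, above) and 2 lower. Over all probe sets tested, 3.60% were higher and 3.86% lower at that age. The list median was -0.71 at 120 days (-0.30 at 90 days). The 2 lower genes were Ppp3ca, a catalytic subunit of calcineurin, which dephosphorylates GAP-43 (log2 fold change -1.17, SE 0.27, limma adjusted p = 0.0224), and the protein kinase C gene Prkcb (-1.17, SE 0.33, limma adjusted p = 0.0499). The Prkcb call was lost under 16 of 23 alternatives, with adjusted p-values up to 0.159, and its value was -0.78 without the third SOD1 G93A mouse of 120 days. The Ppp3ca call was lost under 5 of 23. General neuronal markers were lower in the same arrays, and their part in this was not tested.

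The remaining relatives gave no call. The list around galanin and PACAP had 4 tested genes, the receptor gene Adcyap1r1 and the peptide-processing genes Pam, Pcsk1 and Cpe. The smallest p at 120 days was that of Pam, which amidates neuropeptides (log2 fold change 0.74, limma adjusted p = 0.225). It was the 1 of the 4 with a positive value. The list median was -0.38 at 120 days (0.02 at 90 days), and the summed intensity of its genes at 120 days was 2891.7 to 4497.2 in SOD1 G93A mice, against 4746.9 to 6596.6 in NTg mice. The PACAP receptor gene Adcyap1r1 had -0.32, and the galanin receptors Galr1 and Galr2 were too dim to test. Of 3 endopeptidase relatives of ECEL1, Mme, for neprilysin, had -0.69 (limma adjusted p = 0.475). Of the other small proline-rich and cornified-envelope genes, 2 were tested: Sprr2k had -0.16 (limma adjusted p = 0.857) and Lor 0.004 (limma adjusted p = 0.997) at 120 days. Sprr1b and Sprr2h, relatives of Sprr1a, were below the offset on all 12 arrays.

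**Figure D4:**
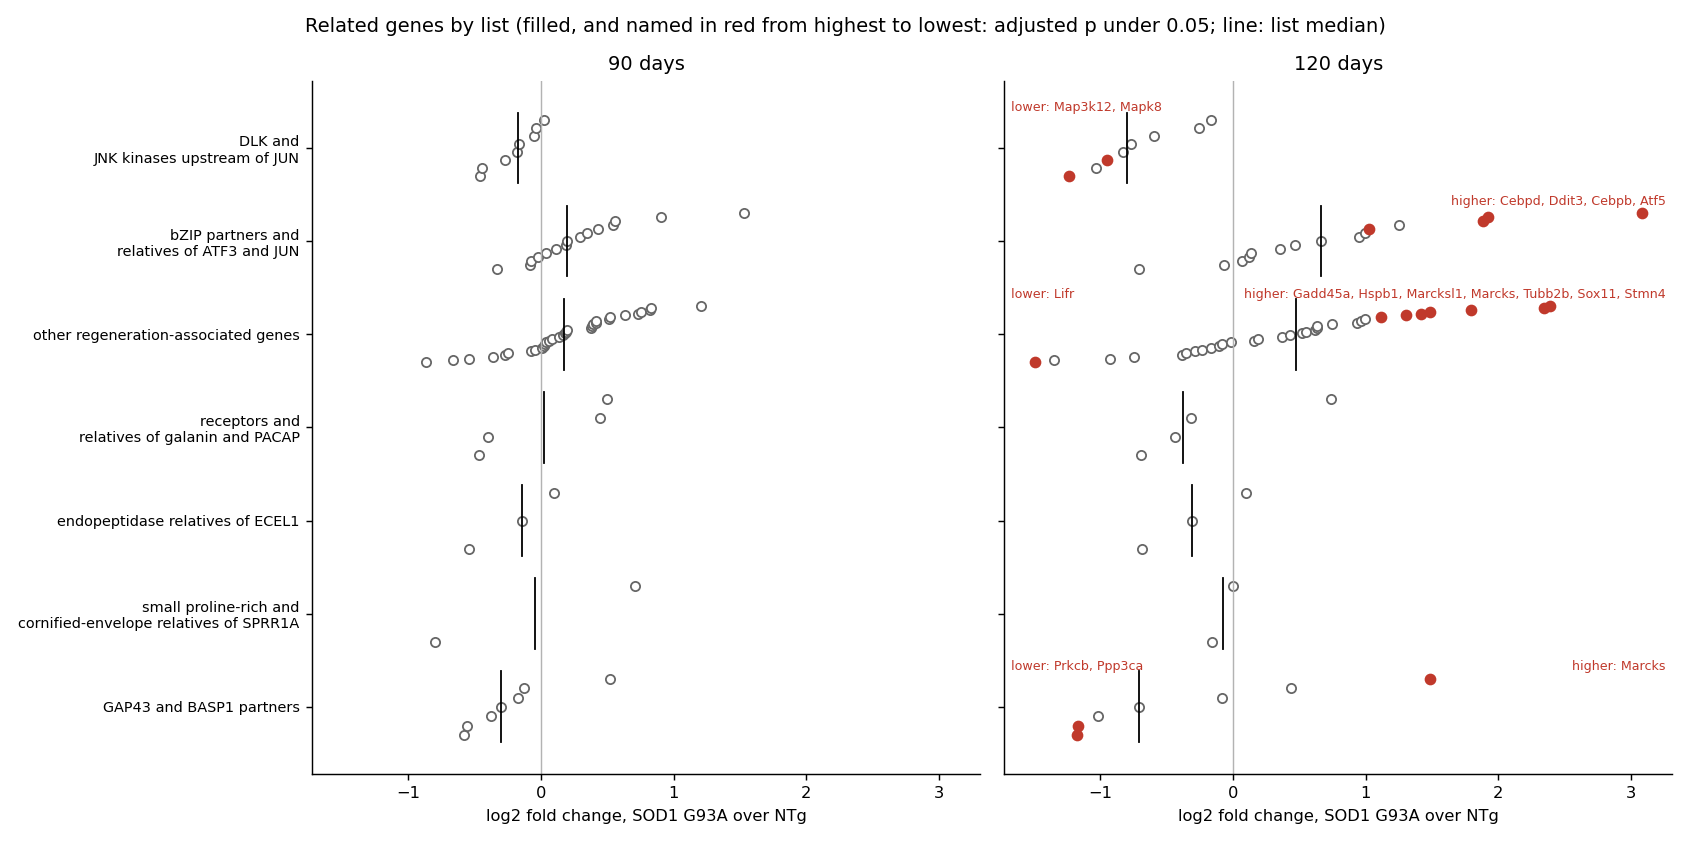
Log2 fold change, SOD1 G93A against NTg, of each tested gene of the 7 lists, at 90 days (left) and 120 days (right), with the median of each list as a vertical line. Filled points are the called genes, named in red from the highest to the lowest, of which there are none at 90 days.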

How the data were processed

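Astrocyte RNA of 12 mice was amplified and read on Affymetrix Mouse Genome 430 2.0 arrays, with 1 array for each mouse. The authors deposited signal intensities on a linear scale, made with MAS5 per the submitters' processing notes (version not stated) and scaled on each array to a mean of 100 after trimming 2% at each end; the study's own tests used another summary, PLIER. Dim intensities carry the least precision.

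Before log2, 7 was added to each intensity (the 20th percentile of the table), and arrays were quantile-normalized within each age. After 64 control probe sets were left out, the 26132 above their own array's median on at least 3 of 12 arrays were tested. With limma 3.58.1 under R 4.3.3, lmFit and eBayes were run on 4 group means, which left 8 residual degrees of freedom, for SOD1 G93A minus NTg at each age and the difference of these. The steps were tested on simulated data. A gene is given by its brightest tested probe set. All members are named, with the called genes of each list, up to 6 by p and the rest by name, or else the 1 or 2 with the smallest p; Fos, Jund, Junb, Adcyap1r1, Galr1, Galr2, Sprr1b and Sprr2h were added after their values were seen. Members and lists were chosen with earlier results of these data known. Symbols came from the platform annotation (34958 probe sets with 1 symbol, 932 with several, 9211 with none). The alternatives were other scalings, offsets and filters, each age alone, a replicate block, array weights, a trended robust prior and each array left out.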

Additional observations from a re-analysis of the deposited data

Results flagged for a closer look

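The galanin gene Gal had log2 fold changes of opposite sign at the 2 ages. After normalization all 3 SOD1 G93A arrays were above all 3 NTg arrays at 90 days and all 3 were below them at 120 days, and the log2 fold change at 120 days minus that at 90 days was -1.34. Gal was too dim to be among the probe sets tested. When every probe set was kept in the limma fit, this difference had an unadjusted p of 0.0127 and an adjusted p of 0.574, so it did not pass. With the values as deposited, the arrays of 120 days overlapped and the log2 fold change at that age was -0.19 in place of -0.62.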

How the results depend on the processing

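Atf3 kept its direction and its call at 120 days under all 23 alternatives (log2 fold change 1.46 to 2.26, limma adjusted p = 0.000165 to 0.00975). At 90 days it kept its call under 22 (adjusted p up to 0.0401 with 1 array left out), and fitting each age alone left 0 of the member probe sets called in place of 1. At 120 days, 2 were called as reported, 1 with median centring, and 1 to 3 with 1 array left out: 1 without any of the 3 NTg mice of that age, when Gap43 was lost, and 3 without mouse 1 or 3 of the SOD1 G93A or mouse 2 or 3 of the NTg mice of 90 days, when Sprr1a passed. No member was called for the difference between ages under any alternative that gave one. Jun at 120 days reversed to -0.26 with median centring and to -0.038 without SOD1 G93A mouse 1 of that age (-0.038 to 0.37 with 1 array left out). The filter at the 75th percentile left out Sprr1a, Adcyap1 and Ecel1, which then have no value.

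Of the 16 called list genes, 6 (Cebpb, Cebpd, Ddit3, Gadd45a, Hspb1 and Marcksl1) kept their call under every alternative and 10 (Map3k12, Mapk8, Atf5, Tubb2b, Lifr, Marcks, Stmn4, Sox11, Ppp3ca and Prkcb) lost it under at least 1, at most 16 of 23, with adjusted p-values up to 0.180; none reversed. Mice of the same number did not deviate together as a rule (correlations of their deviations -0.266, 0.275 and -0.280 at 90 days, -0.06, 0.04 and -0.009 at 120 days). SOD1 G93A mouse 2 correlated less with NTg mice of other numbers, at most 0.102 at 90 days and -0.016 at 120 days. SOD1 G93A mice 1 and 3 each had a higher value with another number at both ages. With a replicate block, 7 called list genes (Map3k12, Mapk8, Atf5, Marcks, Stmn4, Sox11 and Prkcb) lost their call, and the member counts stayed at 1 and 2, while calls over all probe sets were 17 in place of 36 at 90 days and 1063 in place of 1948 at 120 days. All calls at 90 days ranged from 12 without SOD1 G93A mouse 3 of that age to 131 with array weights. At 120 days they ranged from 475 without NTg mouse 2 of that age to 3500 with median centring, which moved the median of all probe sets to -0.33 and left 19.0% of the calls higher, against 48.3% as reported. The cause of these changes was not tested. Signals near the offset, those of Gal, the dimmer Adcyap1 probe set and the NTg values of Atf3 and Sprr1a, are the least precise.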
